A study of Helix lucorum with 35 samples.

Results

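The parietal ganglia of the land snail Helix lucorum were compared within each animal: one side of the ganglion was treated with activating drugs and the other side was frozen without them. The 12 RNA-Seq libraries of this first experiment (E1) were taken out of the 35 samples of the series by their labels, and they fall into 6 activated and 6 control samples, 1 of each from every one of snails 1 to 6. A second experiment on a smaller medial piece of the ganglion (E2, 12 samples) was used only as a look at other animals, and 11 samples that served the transcriptome assembly were not used here. All central nervous systems were first kept at 4 °C for 24 h. The activated side then received anisomycin (20 µM) alone for 10 min, followed by 20 to 25 min in the same concentration of anisomycin together with 5-HT (5 µM) and caffeine (100 µM), whereas no drug reached the control side before it was frozen. The comparison therefore holds the stimulation, the anisomycin, the change of saline and the added time together, and these cannot be told apart. In snails 1 to 3 the activated side was the left one, and in snails 4 to 6 it was the right one. The study's methods state that the visceral ganglion stayed attached to the left piece, while its drawing of the dissection leaves that ganglion out.

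Immediate early genes are the genes that a cell transcribes first after a stimulus, from factors already present and without the need for new protein. Many encode transcription factors, among them c-Fos, which pairs with Jun proteins to form the AP-1 factor, and in neurons their transcripts serve widely as a record of recent activity. 5-HT is the modulator released in gastropod ganglia by noxious stimuli, caffeine raises cAMP and releases calcium from internal stores, and anisomycin blocks translation, so that transcripts that appear in its presence are made without newly made protein. In mammalian cells, blocking translation is also known to prolong the transcripts of immediate early genes.

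The measured features were 693041 contigs, the transcript pieces that the authors assembled without a reference genome, each with an expected read count per library. Contigs carry numbers, and a gene name was available for 1 of them, so the tissue could not be checked against marker genes. Library totals ranged from 3513906 to 35225724 counts, and the deeper library of a pair was the activated one in snails 2, 3, 5 and 6 and the control one in snails 1 and 4. Values are given as CPM, counts divided by the scaled size of the library, which does not correct for contig length. In these bulk samples, fewer cells of a type and less RNA per cell cannot be told apart.

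The contig that the study pairs with c-fos/fosl2, number 1398029, was higher in the activated sample of every snail. In the control samples of snails 1 to 6 it stood at 1.56, 10.7, 3.04, 14.8, 4.16 and 2.85 CPM, and in their activated samples at 116, 59.9, 51.0, 42.5, 52.0 and 47.2 CPM. The groups did not overlap, since the lowest activated sample (snail 4, 42.5 CPM) was above the highest control sample (snail 4 as well, 14.8 CPM). The means were 6.18 ± 5.31 CPM in the control samples and 61.5 ± 27.4 CPM in the activated samples (SD, n = 6). The paired differences in log2(CPM + 0.5) were 5.83, 2.43, 3.86, 1.49, 3.49 and 3.83 for snails 1 to 6, with a mean of 3.49 ± 0.60 (SE, n = 6) and an exact two-sided sign-flip permutation p of 0.03125, the smallest that 6 pairs allow. In the fit across all contigs (edgeR's quasi-likelihood test with the snail as a block) its log2 fold change was 3.58 with an adjusted p of 0.026. Among the contigs called higher, described next, it was number 67 by mean CPM in the activated samples and number 65 by fold change. Its adjusted p was 0.0247 with the side as a further term, and between 0.0621 and 0.225 without snail 1, 2, 3, 5 or 6, with a log2 fold change between 3.08 and 4.09 over all fits that left out 1 snail.

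Activation was followed almost entirely by higher levels. Of 387774 contigs tested, which had a total above 10 counts over the 12 libraries, 466 (0.12%) were called higher and 16 (0.00413%) were called lower in the activated samples, with calls made at a fold change above 2 and an adjusted p below 0.05 in edgeR's quasi-likelihood test with the snail as a block. Together these were 482 contigs (0.124%), of which 96.7% were higher. Several contigs can be pieces of the same transcript, so these are not counts of independent genes. The contigs called higher had a median log2 fold change of 2.43, with a range from 1.03 to 6.39 over the 453 of them that had counts in a control sample, whereas the median of all tested contigs was 0.03. A log2 fold change between 1 and 2 was found for 145 of them, between 2 and 3 for 204, between 3 and 4 for 76, and above 4 for 41. At an unadjusted p below 0.05, 13838 contigs (3.57%) passed, 9272 higher and 4566 lower. That threshold lets through about 5% where nothing changes, so the number passing shows no excess by itself. The same holds for the unadjusted counts given below with fits that called no contig. The adjusted p of the calls ranged from 0.00823 to 0.0499.

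The number of calls depended on the fit. Without snail 1, 3, 5 or 6 the same fit called 0 contigs (11555 to 13127 at an unadjusted p below 0.05), without snail 2 it called 25, and without snail 4 it called 784. Without the block the quasi-likelihood test called 0 contigs (11453 unadjusted), limma called 0 with the block (19301 unadjusted), edgeR's exact test without the block called 327 higher and 7 lower, and DESeq2 with the block called 869 higher and 18 lower. Of the 466 contigs called higher, 207 were also called higher by the exact test and 437 by DESeq2.

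**Figure D1:**
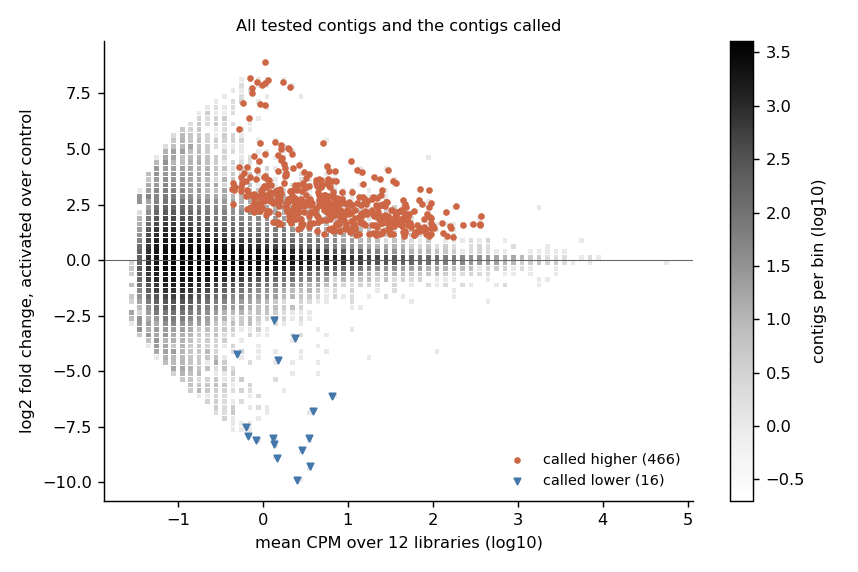
Log2 fold change of activated over control (vertical axis) against mean CPM over the 12 libraries (horizontal axis, log10) for 387774 tested contigs, shown in grey by the number of contigs per bin. Orange points are the 466 contigs called higher and blue triangles the 16 called lower; no contig with a mean above 10 CPM was called lower.

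Most contigs called higher were higher in the activated sample of every snail, where a difference of any size counted. Of the 466 contigs, 420 (90.1%) were higher in the activated sample of all 6 snails, which holds for 6234 (1.61%) of all tested contigs, and 461 were lower in none of them. Every activated sample lay above every control sample for 212 of the 466 (45.5%), against 781 (0.201%) of all tested contigs. These counts describe contigs that were called on the same libraries, by a paired test that favours rises shared between snails. They therefore do not test whether the rise was shared. Counts in both or either sample of all 6 snails were present for 425 of the 466 (91.2%, against 51.4% of all tested contigs), in 5 snails for 21, in 4 for 9, in 3 for 7 and in 2 for 4.

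For a count that the choice of contigs did not fix, each snail was left out in turn, a lookup added after seeing the data. The 200 contigs with the smallest p among those higher in the other 5 snails were looked up in the snail left out. Of the 200, 196, 194, 195, 193, 190 and 183 had counts in snails 1 to 6, each when left out, and the shares are of these. Higher in the activated sample were 95.9% in snail 1, 95.9% in snail 2, 97.9% in snail 3, 90.7% in snail 4, 97.9% in snail 5 and 95.6% in snail 6. Over all tested contigs with counts in the snail, this share was between 36.5 and 66.5%. The size of the rise differed more than its direction. At least 2-fold higher were 93.9, 52.1, 86.2, 21.8, 91.6 and 80.3% of the chosen contigs with counts in snails 1 to 6, against 1.07 to 9.10% of all contigs with counts. This background was not matched for level: 260361 tested contigs had a mean below 0.5 CPM, where adding 0.5 CPM damps a difference. The median log2 differences of the chosen contigs were 3.05, 1.02, 2.08, 0.73, 2.25 and 1.91, so snails 4 and 2 rose least and snail 1 most.

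**Figure D2:**
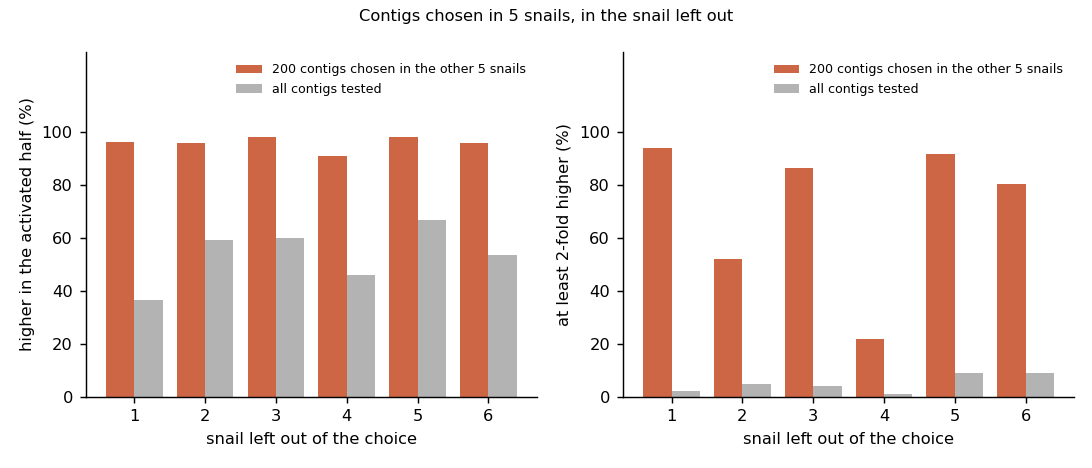
Share of contigs higher (left) and at least 2-fold higher (right) in the activated sample of each snail (vertical axes, %), for 200 contigs chosen in the other 5 snails (orange) and for all tested contigs (grey). Both shares are of the contigs with counts in that snail. The chosen contigs were higher for 90.7 to 97.9% in each snail, while the share at least 2-fold higher fell to 21.8% in snail 4.

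For the more abundant contigs called higher, the snails differed more in the control samples than in the activated ones. Among the contigs called higher, 110 had a control mean of at least 10 CPM, and their median SD of log2(CPM + 0.5) over snails was 0.82 in the control samples and 0.55 in the activated samples. The SD was larger in the control samples for 85 of the 110 (77.3%), against 5732 of 10279 (55.8%) of all contigs at that level. The median control level of the 110 called contigs stood 1.10 above the mean of the 6 snails on the log2 scale in snail 2 and 0.69 above it in snail 4. In snails 1, 3, 5 and 6 its deviation was -0.29, -0.53, -0.16 and -0.37. In the activated samples the same medians stayed between -0.26 and 0.33. The median of all contigs at that level was 0.04 in the control sample of snail 2 and 0.24 in that of snail 4. Snails 2 and 4 thus had the highest control levels of these contigs and the smallest rises. A rise is the activated level less the same control level, so these values are not independent. What set snails 2 and 4 apart was not tested.

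The contigs called higher took a larger share of the counts in every activated sample. In the control samples of snails 1 to 6 they held 0.282, 0.874, 0.275, 0.528, 0.435 and 0.361% of the counts, and in the activated samples 2.06, 1.76, 1.15, 0.954, 1.62 and 1.37%. The groups did not overlap, since the lowest activated share (snail 4) was above the highest control share (snail 2). The control samples averaged 0.459 ± 0.225% and the activated samples 1.49 ± 0.409% (SD, n = 6), and the share rose 7.31-fold in snail 1 but 2.01-fold in snail 2 and 1.81-fold in snail 4. These shares have no test, since the contigs were chosen on these libraries.

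**Figure D3:**
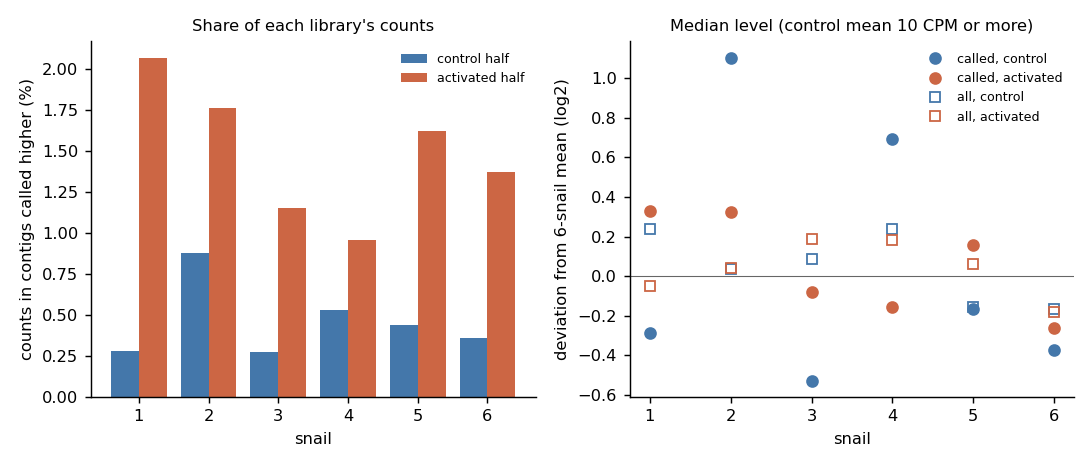
Left, share of each library's counts in the 466 contigs called higher (vertical axis, %) for the control (blue bars) and activated (orange bars) samples of snails 1 to 6. Right, median deviation from the mean of the 6 snails (vertical axis, log2) for the 110 called contigs with a control mean of at least 10 CPM (filled circles) and all 10279 contigs at that level (open squares); the control samples of snails 2 and 4 stand highest for the called contigs, at 1.10 and 0.69.

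The contigs called higher ranged from rare to already abundant in the untreated ganglion. The mean control level of the 466 contigs ranged from 0 to 197 CPM with a median of 1.87 CPM, and the mean activated level from 0.761 to 581 CPM with a median of 9.95 CPM. By mean CPM over the 12 libraries, 5 of 260361 contigs below 0.5 CPM were called higher, 117 of 80797 between 0.5 and 2 CPM, 165 of 36093 between 2 and 10 CPM, 129 of 8405 between 10 and 50 CPM, and 50 of 2118 above 50 CPM. The share called thus went from 0.00192% in the lowest class to 2.36% in the highest, over classes with unequal power to make a call. The median log2 fold change of the called contigs was 3.07 between 0.5 and 2 CPM, 2.49 between 2 and 10 CPM, 2.03 between 10 and 50 CPM and 1.58 above 50 CPM. A contig with few counts needs a larger fold to be called, so these medians do not compare the size of the rise between levels. All 16 contigs called lower were in the classes from 0.5 to 10 CPM. Classed by the control mean instead, 127 of the 466 were below 0.5 CPM, 112 between 0.5 and 2 CPM and 21 above 50 CPM.

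**Figure D4:**
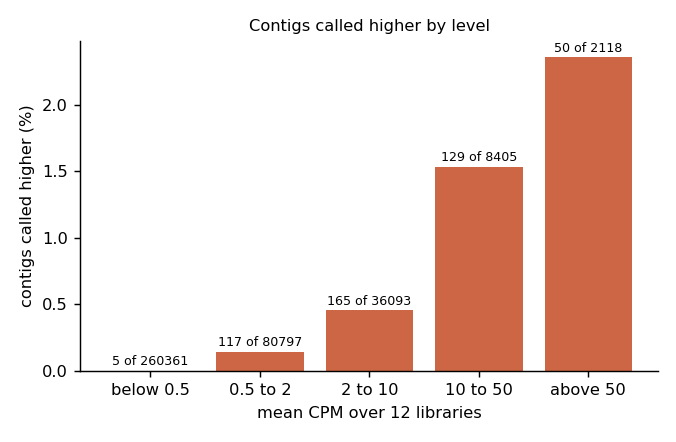
Share of contigs called higher (vertical axis, %) by class of mean CPM over the 12 libraries (horizontal axis), with the number called of the number tested above each bar. The share went from 0.00192% below 0.5 CPM to 2.36% above 50 CPM.

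The 8 contigs with the smallest p among those called higher were mostly near-silent without treatment. Contig 1949594 had 0.713, 0, 0.584, 0.265, 0.979 and 0.237 CPM in the control samples of snails 1 to 6 and 30.8, 1.95, 7.68, 0.854, 18.2 and 6.90 CPM in the activated samples. It rose in 6 of 6 snails, although the groups overlapped, with the activated sample of snail 4 (0.854 CPM) below the control sample of snail 5 (0.979 CPM), and its log2 fold change was 4.22 (adjusted p = 0.00823, edgeR). Contig 1245359 went from 0.191 ± 0.222 to 3.38 ± 2.51 CPM (SD, n = 6) and was also higher in all 6 snails (log2 fold change 4.34, adjusted p = 0.00823, edgeR). Contig 1593574 was higher in all 6 snails as well, though at 0.0424 CPM in snail 2 and 0.155 CPM in snail 4 against 12.0 CPM in snail 5. The levels in snails 2 and 4 are a few reads at most, so they do not show a direction there.

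Several of these contigs were nearly absent from the same animals. Contig 544738 had activated levels of 15.8, 6.58, 21.5 and 15.7 CPM in snails 1, 3, 5 and 6 but 0.0847 CPM in snail 2 and 0 in snail 4, and no control sample of it exceeded 0.490 CPM. Contig 986630 had no count in either sample of snails 2 and 4 and reached 3.03 to 11.6 CPM in the activated samples of the other 4 snails. Contig 671624 had no count in either sample of snail 4 and 0.0847 CPM in the activated sample of snail 2, against 1.77 to 7.57 CPM in the other activated samples. Of the 466 contigs, the number with no count in either sample was 7, 13, 6, 21, 12 and 17 in snails 1 to 6.

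The contigs of this group with more counts were also higher in the activated sample of every snail, but snail 4 again had the lowest levels. Contig 2029126 had 2.30, 10.7, 0.934, 0.0758, 5.88 and 2.37 CPM in the control samples and 138, 52.7, 15.4, 1.47, 78.5 and 45.5 CPM in the activated samples of snails 1 to 6. Snail 4 was far below the others in both samples, and the log2 fold change was 4.04 (adjusted p = 0.0103, edgeR). Contig 361201 rose from 14.5, 36.8, 13.2, 14.0 and 21.8 CPM in snails 1, 2, 3, 5 and 6 to 73.1, 88.3, 42.1, 52.8 and 78.0 CPM, and in snail 4 it stood at 0.0379 CPM in the control and 0.233 CPM in the activated sample. These levels in snail 4 are a few reads at most, so they do not show a direction there. The log2 fold change of contig 361201 was 1.82 (adjusted p = 0.00886, edgeR).

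The 6 called contigs with the highest CPM in the activated samples were already present at 65.6 to 197 CPM in the control mean and rose in all 6 snails. Contig 199706 had 105, 226, 108, 249, 150 and 103 CPM in the control samples of snails 1 to 6 and 764, 511, 513, 430, 735 and 530 CPM in the activated samples. The groups did not overlap, and the means were 157 ± 65.5 and 581 ± 136 CPM (SD, n = 6), with a log2 fold change of 1.96 (adjusted p = 0.0227, edgeR). Contig 516121 rose more, from 24.9, 119, 38.5, 113, 54.8 and 42.9 CPM to 375, 301, 295, 234, 368 and 256 CPM (log2 fold change 2.43, adjusted p = 0.025, edgeR). For both contigs the control samples of snails 2 and 4 were the highest of the 6.

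The remaining 4 had smaller folds. Contig 230266 rose from 197 ± 134 to 526 ± 109 CPM (log2 fold change 1.64, adjusted p = 0.0276, edgeR), and contig 1847519 from 185 ± 106 to 525 ± 203 CPM (1.58 on the log2 scale, adjusted p = 0.0219, edgeR). Both overlapped between groups through the control sample of snail 2, which had 433 CPM of contig 230266 and 382 CPM of contig 1847519, against lowest activated levels of 407 and 308 CPM in snail 6. Contigs 1652695 and 1984719 moved together: the ratio of the former to the latter stayed between 1.15 and 1.44 in the 12 libraries, and their log2 fold changes were 1.60 and 1.58 (adjusted p = 0.029 for both, edgeR). The control sample of snail 2 (343 CPM) was above the activated sample of snail 6 (340 CPM) for contig 1652695, while contig 1984719 did not overlap between groups. Whether they are pieces of 1 transcript was not tested.

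**Figure D5:**
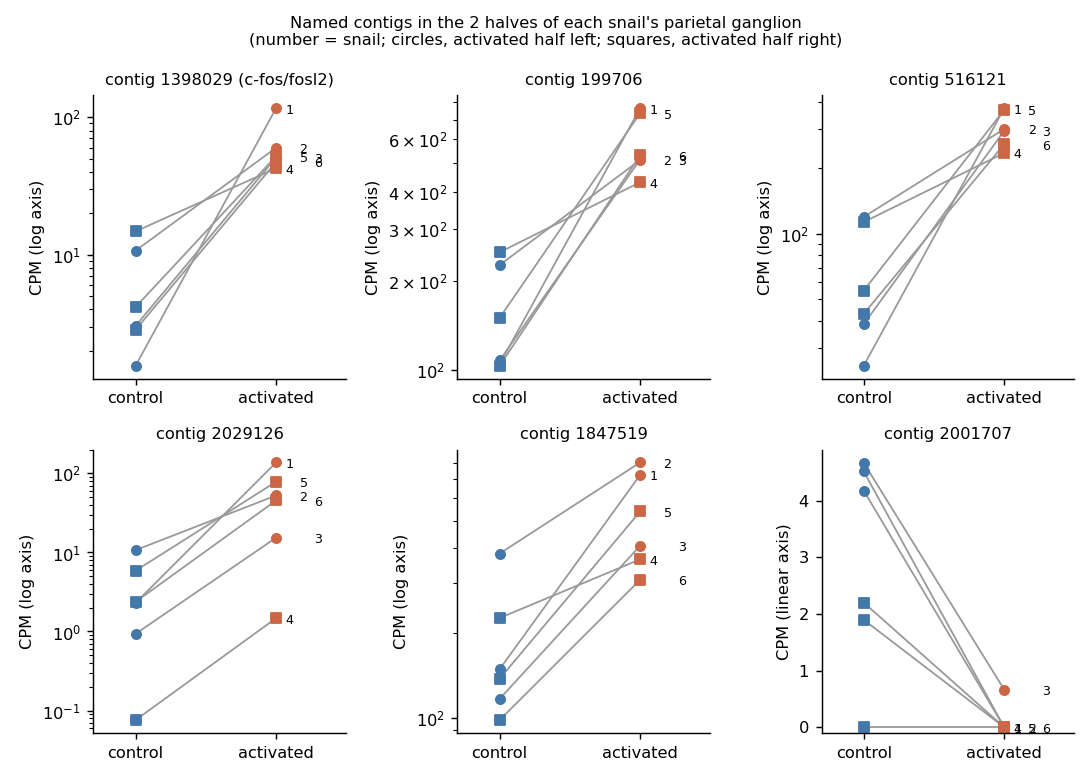
CPM of 6 contigs in the control and activated samples of each snail (1 line per snail, numbered at its activated sample), on log axes except contig 2001707. Circles are snails with the left side activated and squares those with the right side activated; contigs 1398029, 199706, 516121, 2029126 and 1847519 rose in 6 of 6 snails, and contig 2001707 was lower in 5.

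Among the contigs called higher with a mean of at least 1 CPM in the activated samples, the 4 with the largest fitted folds had no count in any control sample, and such a fold depends on the prior count of the fit, so bounds are given instead. Contig 411140 had 324 counts in 3 activated samples (6.02 CPM in snail 2, 3.88 CPM in snail 4 and 11.1 CPM in snail 5), at least 101-fold higher when the control group was given a floor of 3 counts. Contig 1618976 had 188 counts in snails 1, 3 and 5 and was at least 58.9-fold higher, contig 1679920 had 118 counts in 4 snails and was at least 37.0-fold higher, and contig 1313899 had 111 counts in 3 snails and was at least 34.8-fold higher. Each of these 4 was absent from both samples of at least 2 snails, so the rise rests on the other animals. Over all contigs, 1136 had no count in any control sample, of which 28 had counts in all 6 activated samples and 520 (45.8%) in only 1 or 2. In the other direction, 797 had no count in any activated sample, of which 2 had counts in all 6 control samples and 563 (70.6%) in only 1 or 2. Of the 1136, 13 were called higher, and 3 of these are named after their values were seen. Contig 1118444 had the highest bound of the 13, at least 187-fold, from 598 counts in 2 activated samples. The other two had counts in all 6 activated samples, contig 1775550 with 131 counts, at least 41.0-fold higher, and contig 1522059 with 91 counts, at least 28.5-fold higher.

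Contigs called lower were few and rested on few animals. None of the 16 was lower in all 6 snails, since 8 had counts in 2 snails, 4 in 3 snails and 4 in 5 snails, and 10 had no count in any activated sample. With these 10 set at the bound that a floor of 3 counts gives, the median log2 fold change of the 16 was -5.90, and the fitted values of the other 6 ranged from -6.78 to -2.68. Contig 2001707 was the named one seen in most animals. It had 4.18, 4.52, 4.67, 0, 2.20 and 1.90 CPM in the control samples of snails 1 to 6, and 0.665 CPM in the activated sample of snail 3 with 0 in the other activated samples. It was lower in the 5 snails that had counts, with a log2 fold change of -4.51 (adjusted p = 0.025, edgeR), and its adjusted p was 0.115 with the side as a further term.

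The other 4 named contigs of this direction had no count in any activated sample. Contig 1992370 had 1172 counts in the control samples of snails 1 and 4 (6.97 and 36.3 CPM) and was at least 416-fold lower against the floor. Contig 1769743 had 900 counts in the control samples of snails 1, 4 and 5 (27.7, 0.682 and 6.61 CPM) and was at least 319-fold lower. Contigs 672824 and 1044393 had 232 and 225 counts in the control samples of 2 snails each, all with the left side activated, and their adjusted p was 1 with the side in the fit. In DESeq2 with the block, which does not use that floor, the log2 fold change was -3.15 for contig 1992370 and -1.59 for contig 672824, and neither was called (adjusted p = 1.0). Of the 16 contigs, 5 were also called lower with the side in the fit, 2 by the exact test and 3 by DESeq2.

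Most contigs with enough counts changed by less than 2-fold. Intervals of the log2 fold change (95%, limma with the snail as a term) lay within -1 and 1 for 8637 of 10523 contigs with a mean of at least 10 CPM (82.1%), with a median distance of 0.35 from the estimate to the bound, and for 1689 of 2118 contigs of at least 50 CPM (79.7%). Wholly above a 2-fold rise lay 150 of the 10523, and wholly below a 2-fold fall lay 3. Of contigs with a mean of at least 1 CPM, 46998 of 79666 (59.0%) had an interval within 2-fold. These intervals are not adjusted for the number of contigs.

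The contig with the highest CPM, 832420, held 5.49 to 7.21% of each library and had a mean of 63662 ± 12370 CPM in the control and 59603 ± 6643 CPM in the activated samples (SD, n = 6). Its log2 fold change was -0.08 with an interval from -0.25 to 0.10. The intervals of contigs 130170 (-0.26 to 0.32), 1148016 (-0.07 to 0.28) and 528559 (-0.34 to 0.40) also lay within 2-fold. The interval of contig 58320 was wider (-1.41 to 1.39), and this contig differed between the sides of the ganglion. It had 3785, 2645 and 3058 CPM in the control and 10532, 10618 and 12775 CPM in the activated samples of snails 1 to 3, and 10957, 8925 and 9209 CPM in the control and 2869, 2871 and 2236 CPM in the activated samples of snails 4 to 6. The left sample was the higher one in all 6 snails (log2 difference of left over right 1.86, adjusted p = 4.36e-06, edgeR).

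Because the activated side was left in snails 1 to 3 and right in snails 4 to 6, the side was tested beside the activation. Over all tested contigs, 624 (0.161%) were called for the side, and 0 of the 482 contigs called for activation were among them (edgeR's quasi-likelihood test, other tools were not run for the side). The main fit had no side term, and the side enters the paired differences of snails 1 to 3 and 4 to 6 with opposite signs. A large side difference widens the spread in that fit, so the 0 does not show the calls to be free of side differences. In the same test of the side, 59 of the 482 (12.2%) had an unadjusted p below 0.05, against 3.72% of all contigs. With the side in the fit 398 contigs were called, 383 higher and 15 lower, of which 343 were among the 482. The contigs called higher had a median mean log2 difference of 1.96 in snails 1 to 3, with 465 of 466 above 0, and of 1.61 in snails 4 to 6, with 463 above 0. The c-fos/fosl2 contig had a mean log2 difference of 4.04 in snails 1 to 3 and of 2.94 in snails 4 to 6, and its adjusted p for the side was 1.

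The contigs called in E1 were also looked up in the 5 snails of E2 that had both an activated and a control library of the medial ganglion piece, other animals and another dissection. All 466 contigs called higher were present among those tested there. By the study's own list, an activated library among these had far fewer reads than the others, so rare contigs can be missed in it. The mean paired log2 difference was above 0 for 447 of the 466 (95.9%), against 35.5% of all contigs tested in both experiments. In 5 of 5 snails 253 (54.3%) were higher, against 3270 of the 294392 contigs tested in both, a background not matched for level. The median of the mean differences was 1.05 in E2 and 1.82 in E1 on the log2(CPM + 0.5) scale, and the difference between the experiments was not tested. Of the 4 named contigs with the largest fitted folds in E1, 2 did not rise in E2. Contigs 411140 and 1679920 had mean differences of -0.41 and -0.56 there, higher in 1 and 0 of 5 snails. Contigs 1618976 and 1313899 had 0.96 and 0.93, each higher in 3 of 5 snails. The contigs called lower gave another picture: of the 14 that were tested in E2, 7 had a mean difference below 0 and 7 above 0, with a median of 0.00.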

How the data were processed

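RNA-Seq of parietal ganglion pieces gave 12 libraries (reads of 100 nt), 6 activated and 6 control, grouped by their labels. The authors removed adapters with cutadapt 1.11, assembled contigs with SOAPdenovo-Trans, mapped reads with Bowtie 1.0.0 and estimated counts with RSEM 1.2.18. The deposited values are these expected counts, neither normalized nor filtered. RSEM divides reads shared by similar contigs, so counts of near-identical contigs are uncertain. Every column was matched to a sample by name. The study's methods describe rRNA depletion, whereas the labels name poly A+ RNA.

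Expected counts were rounded, contigs with a total above 10 were kept, and libraries were scaled by TMM. The main test was edgeR's quasi-likelihood test with the snail as a block and p-values adjusted by the Benjamini-Hochberg method, and contigs were called at a fold change above 2 and an adjusted p below 0.05. The study's methods name edgeR, a total above 10 and these thresholds, and a total of at least 10 and the exact test without a block were run as alternatives. Single contigs were tested by exact two-sided sign-flip permutation over the 6 pairs, on log2(CPM + 0.5). The sign-flip p was 0.03125 for 420 of the 466 contigs called higher. It was 0.0625 for contigs 544738 and 671624, 0.125 for 986630 and 1679920, and 0.25 for 411140, 1618976 and 1313899. Of the named contigs called lower, 2001707 had 0.0625, 1769743 had 0.25, and 672824, 1992370 and 1044393 had 0.5. DESeq2 1.42.0, limma 3.58.1 and edgeR 4.0.16 were run in R 4.3.3. Each library came from 1 snail, and the block takes up differences in level between snails. P-values of the main test therefore rest on the spread of the paired differences, with estimates of spread shared across contigs. A contig with counts in only 2 snails, such as 672824, could be called (adjusted p = 0.0219, edgeR).

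Libraries with the same number come from 1 animal, so the numbers pair the samples. Their deviations from the group means correlated at 0.699 to 0.794 within snails and at -0.32 to -0.0116 between snails (30227 contigs whose mean count was 50 or more), and the block lowered the coefficient of variation between replicates from 71.8 to 38.1%.

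Named are contig 1398029, the 8 contigs called higher with the smallest p, the 6 with the highest activated CPM, the 4 with the largest fold at 1 CPM or more in the activated samples, the 5 called lower with the smallest p, and the 5 contigs with the highest CPM. The comparison, the contigs and the rules were chosen with earlier results of these data known, and the lookup of 200 contigs in a left-out snail was added after seeing that 4 of the fits without a snail called none. Alternatives covered the block, the side, the tool, the scaling, the filter, the dispersion, rounding, the depth and each snail left out. Floors of 3 counts over a group cover counting error only. Contigs other than 1398029 carry no gene name here, and no sequence of them was used.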

Additional observations from a re-analysis of the deposited data

Results flagged for a closer look

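Of the 200 contigs chosen in the other 5 snails, 193 had counts in snail 4, and 90.7% of these were higher in its activated sample. This stood apart from the 95.6 to 97.9% of the other snails (gap of 0.681 of the whole range).

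For contig 2001707, called lower, snail 4 stood apart from the others with a paired log2 difference of 0.0, since this animal had no count in either sample (gap of 0.646 of the range). Of 35 groups of 6 values looked at in this way, 2 stood apart, where chance gives about 1.75 at 1 in 20.

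The paired log2 difference of contig 58320 differed by 3.72 between the snails activated on the left and those activated on the right, and the test of the side gave an adjusted p of 4.36e-06 (edgeR). That of contig 528559 differed by 0.90, from 0.48 in snails 1 to 3 to -0.42 in snails 4 to 6, and the test of the side gave an adjusted p of 0.0895 (edgeR).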

How the results depend on the processing

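No result reversed its direction in the alternatives run, but the number of calls (482, 466 higher and 16 lower) did not hold. Without the replicate block the quasi-likelihood test called 0 contigs, and so did limma and a filter of at least 1 CPM in at least 6 libraries (3843 of 79282 tested contigs at an unadjusted p below 0.05). DESeq2 called 887 contigs, 869 higher, and gave no adjusted p for 263132 contigs. RLE size factors gave 314 calls, 302 higher, and library totals alone gave 216, 207 higher and 9 lower. A total of at least 10 in place of a total above 10 kept 404678 contigs and gave 615 calls, 598 higher and 17 lower. No filter gave 1867 calls, 1627 higher and 240 lower, robust empirical Bayes 1333, 1160 higher and 173 lower, and the older quasi-likelihood method 1269, 1175 higher and 94 lower. Thinning the deeper library of each snail to the depth of the other gave 201 calls, 197 higher and 4 lower, and the exact test called 7 lower. Leaving out each snail in turn, which leaves fewer samples, gave 0 to 784 calls, 0 to 762 higher and 0 to 22 lower. Where a number was moved by a setting other than the samples or contigs it leaves out, the cause was not tested.

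The c-fos/fosl2 contig kept a log2 fold change near 3.58 but missed the threshold with no replicate block (3.30, adjusted p = 0.0736), limma (3.65, adjusted p = 0.15), library totals alone (3.51, adjusted p = 0.0505), the CPM filter (3.53, adjusted p = 0.119) and robust empirical Bayes (3.59, adjusted p = 0.444), and it ranged from 3.08 to 4.09 without each snail. Over all its alternatives the adjusted p ranged from 2.59e-08 to 0.444. The activated share of counts was 0.524% for the contigs of the exact test, against 1.49%, and 51.3% of the contigs called higher were below 2 CPM by the control mean, against 26.2% by the mean of all libraries. For the 23 other named contigs that were called, 237 values kept their call and 208 lost it, with the same sign. Below 0.5 CPM over the 12 libraries 5 contigs of 260361 were called, with a median log2 fold change of 3.18, and smaller changes at that level were not shown at this depth.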
